A study of Mus musculus with 24 samples.

Results

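The gene deserts on both sides of the Hoxd cluster were examined for 3 histone marks mapped by chromatin immunoprecipitation and sequencing (ChIP-seq). The members were all peaks of 7 deposited peak lists that lay wholly on chromosome 2 of mm10 between 73900000 and 74640000, on the centromeric side, or between 74780000 and 75600000, on the telomeric side. The bounds were set by position alone, and the gene cluster between them was left out. Of 368383 peaks in all, 530 were members, 92 on the centromeric and 438 on the telomeric side. No peak crossed a bound.

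Forelimb buds came from Swiss Webster mouse embryos at E10.5 with 32 to 35 somites, which were wild type (WT) or Shh-/-, homozygous for a null allele of Sonic hedgehog. By the study's methods several embryos were pooled per immunoprecipitation, and the WT pool also held heterozygous littermates. NIH3T3 cells, an established line of mouse embryonic fibroblasts, were kept for 48 h with LIF, as the labels name it, and either 400 nM purmorphamine, an agonist of Smoothened that switches on the Hedgehog pathway, or the solvent DMSO (control). H3K27ac was mapped in all 4 conditions, H3K4me2 in both limb genotypes and H3K27me3 in Shh-/- limb buds, with 2 replicates per condition among 24 libraries. Each list had been called on both replicates together, so the spread between replicates is not visible in these lists, and no test between conditions was made.

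The Hoxd genes pattern the limb, and much of their limb expression is driven by enhancers spread through the flanking deserts. Enhancers on the telomeric side act mainly in the early bud and the future forearm, and those on the centromeric side mainly in the future hand and foot, where the most 5′ genes such as Hoxd13 are used. Sonic hedgehog from the posterior margin of the bud keeps GLI3 from being cut into a repressor and is needed for the full posterior domain of these genes. H3K27ac is found at enhancers and promoters in use, H3K4me2 also at those not in use, and H3K27me3 is the mark of Polycomb silencing.

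The 4 stretches of 300 bases printed here, from the reference mm10 plus strand and written 5′ to 3′, hold acetylated sequence the results turn on. On each side the window is centred on the best-ranked WT H3K27ac peak that had no overlap in Shh-/- buds and on the longest WT H3K27ac peak. Capitals mark CAATAAA or its reverse complement TTTATTG, a motif of posterior HOX proteins. The first lies at chr2:73976849-73977148, within the centromeric stretch where the most WT acetylation was missing from the Shh-/- list. The second lies at chr2:73952949-73953248, the third at chr2:75370549-75370848 and the fourth at chr2:75493074-75493373.
Best-ranked WT-only peak, centromeric: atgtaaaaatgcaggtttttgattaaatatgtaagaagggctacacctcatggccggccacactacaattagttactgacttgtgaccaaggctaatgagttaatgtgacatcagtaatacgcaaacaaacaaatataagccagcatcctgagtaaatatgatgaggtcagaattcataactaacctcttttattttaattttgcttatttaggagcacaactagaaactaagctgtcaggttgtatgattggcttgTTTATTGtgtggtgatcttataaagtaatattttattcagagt
Longest WT peak, centromeric: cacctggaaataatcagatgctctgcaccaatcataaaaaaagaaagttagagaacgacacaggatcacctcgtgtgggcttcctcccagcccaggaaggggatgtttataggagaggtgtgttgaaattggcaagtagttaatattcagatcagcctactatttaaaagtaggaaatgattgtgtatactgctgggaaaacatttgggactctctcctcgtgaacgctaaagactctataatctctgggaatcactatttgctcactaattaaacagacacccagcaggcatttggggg
Best-ranked WT-only peak, telomeric: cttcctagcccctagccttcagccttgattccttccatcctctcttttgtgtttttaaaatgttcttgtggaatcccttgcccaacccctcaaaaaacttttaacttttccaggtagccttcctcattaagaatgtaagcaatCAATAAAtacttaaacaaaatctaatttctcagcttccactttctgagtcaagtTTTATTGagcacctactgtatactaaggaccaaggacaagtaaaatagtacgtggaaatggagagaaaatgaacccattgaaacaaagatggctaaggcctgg
Longest WT peak, telomeric: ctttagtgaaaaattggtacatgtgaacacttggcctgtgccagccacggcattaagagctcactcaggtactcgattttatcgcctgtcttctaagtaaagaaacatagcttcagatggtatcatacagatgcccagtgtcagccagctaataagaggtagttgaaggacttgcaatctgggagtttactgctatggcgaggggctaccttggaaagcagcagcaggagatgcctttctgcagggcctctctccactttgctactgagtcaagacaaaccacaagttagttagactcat
The motif occurred once in the first stretch and 2 times in the third, and the windows of both longest peaks held none.

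H3K27ac covered far more of the telomeric than of the centromeric desert in limb buds. A larger part of the WT acetylation was absent from the Shh-/- list on the centromeric than on the telomeric side. In WT buds 37 peaks covered 19300 bases on the centromeric side and 106 peaks covered 64350 bases on the telomeric side. In Shh-/- buds 17 peaks covered 4050 bases on the centromeric side and 89 peaks covered 37150 bases on the telomeric side. The Shh-/- list thus held 21.0% as many acetylated bases as WT on the centromeric side and 57.7% on the telomeric side, where it held 84.7% over the whole genome and 78.2% in the Hoxd cluster. In tissue, fewer cells with an acetylated region and less acetylation per cell cannot be told apart.

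Against the genome, WT H3K27ac was dense on both sides. It covered 26.1 bases per kb of the centromeric desert, 3.06 times the mean over the genome, and 78.5 bases per kb of the telomeric desert, 9.20 times that mean. In the Shh-/- list the telomeric value was 6.27 times the mean of its own list, but the centromeric value was 0.757 times it. The centromeric desert was therefore above the genome mean in WT and below it without Shh. The telomeric side carried 3.01 times as many acetylated bases per kb as the centromeric side in WT buds and 8.28 times as many in Shh-/- buds.

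A peak was called unshared when it overlapped the other condition's list by less than 1 bp. On the centromeric side 30 of 37 WT H3K27ac peaks were WT-only, or 81.1% (95% Wilson interval 65.8 to 90.5), beside 48.5% of all peaks of the list. On the telomeric side 63 of 106 were WT-only, or 59.4% (49.9 to 68.3). The share was higher on the centromeric side by 21.6 percentage points (95% Newcombe interval 3.98 to 35.1). The interval included 0 when 50% of a peak had to be covered (14.5 points, -0.368 to 24.8) and when peaks within 1 kb were merged (15.2 points, -10.8 to 37.5). With promoter peaks left out, 28 of 33 centromeric peaks (84.8%, 69.1 to 93.3) and 58 of 94 telomeric peaks (61.7%, 51.6 to 70.9) were WT-only. The whole list then had 56.9%, nearer to the telomeric share. These intervals cover counting error only and take peaks as independent, which neighbouring peaks are not.

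The whole list had 47.7% of WT-only peaks when its peaks were weighted to the ranks of the centromeric members in 10 equal classes, and 49.5% when weighted to those of the telomeric members. Among members in the better-ranked 50% of the list, 16 of 19 centromeric and 21 of 51 telomeric peaks were WT-only, beside 6183 of 24839 over the whole list. On the telomeric side the WT-only peaks were mostly short, with a median of 150 bp, and together they covered 13850 bases. On the centromeric side they had a median of 300 bp and covered 13900 of the 19300 bases. Counted by bases, 8.81% of WT H3K27ac on the centromeric side and 48.2% on the telomeric side lay inside Shh-/- peaks, beside 59.7% over the whole list.

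In the other direction, 10 of 17 Shh-/- H3K27ac peaks on the centromeric side were absent from the WT list (58.8%, 36.0 to 78.4) and 24 of 89 on the telomeric side (27%, 18.8 to 37.0), beside 38.4% of the whole Shh-/- list. These were short peaks. The 10 centromeric ones covered 1550 bases and the 24 telomeric ones 3500 bases. The best-ranked centromeric one, 200 bp at 73935200 to 73935399, stood at 50.0% of its list, where 0% is the best rank. The best-ranked telomeric one, 400 bp at 75150700 to 75151099 in an intron of the lincRNAs 2600014E21Rik and A330043C09Rik, stood at 23.8% and adjoined a WT peak. Weighted to the ranks of the members, the whole Shh-/- list had 50.3% for the centromeric and 38.9% for the telomeric side. In its better-ranked 50%, 1 of 5 centromeric and 4 of 45 telomeric peaks were Shh-/- only, beside 3797 of 21958 over the whole list.

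**Figure D1:**
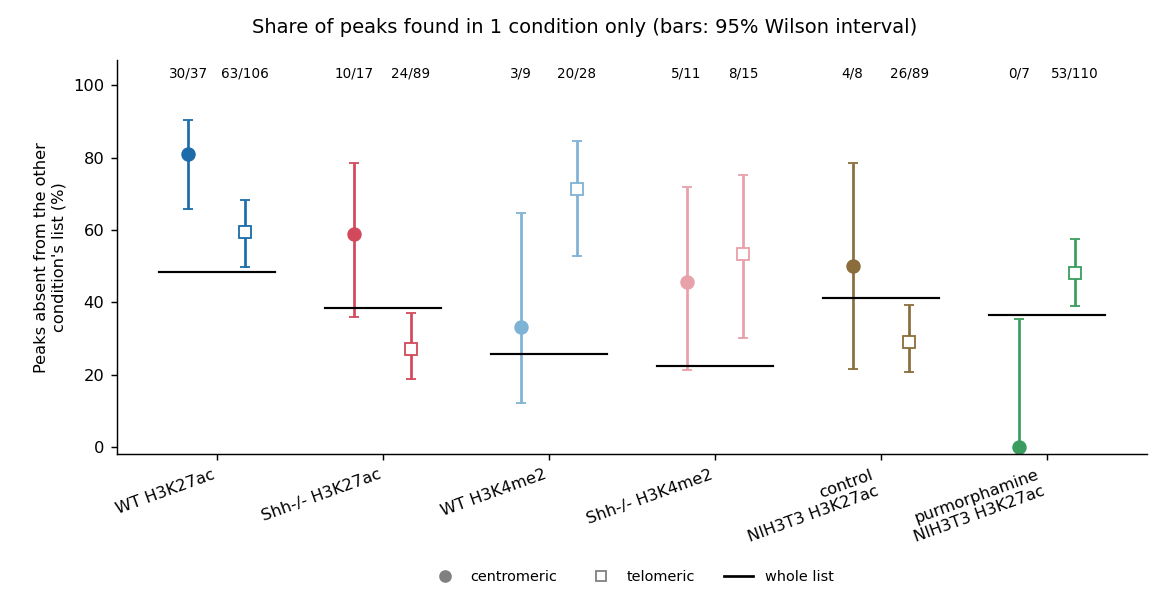
Share of peaks, in percent, that overlapped no peak of the other condition's list, for 6 lists on the centromeric (filled circles) and telomeric (open squares) side, with 95% Wilson intervals, the counts above and the share of the whole list as a black line. WT H3K27ac peaks of the centromeric side stand at 81.1% against a whole-list share of 48.5%.

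Neighbouring peaks were joined into elements, so that a region broken into several peaks counted once: limb H3K27ac and H3K4me2 peaks of both genotypes within 1 kb of each other. The centromeric desert held 24 elements, 18 of them with WT H3K27ac. Of these 18, 10 had no Shh-/- H3K27ac peak, and they held 60.4% of the WT acetylated bases of that side. The telomeric desert held 53 elements, 47 with WT H3K27ac. Of these 47, 17 had no Shh-/- peak, but they held 8.00% of the WT acetylated bases. Over the genome, joined in the same way, 31.9% of 27214 elements with WT H3K27ac had no Shh-/- peak and held 9.71% of the bases. By bases, then, the telomeric value was near that of the genome and the centromeric value was not.

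The element with the most WT H3K27ac on the centromeric side lay at 73976350 to 73984199, 684 kb from the start of Hoxd13 in intergenic sequence. It held 6000 acetylated bases in 7 WT peaks and 0 bases in each of the other 6 lists. Its best-ranked peak (73976350 to 73977649, 1300 bp) had a log2 ratio of ChIP to input of 4.68 and stood at 9.60% of the WT list, and the nearest Shh-/- H3K27ac peak was 22901 bp away. Of 186 elements in the genome with at least 6000 WT H3K27ac bases, this was the 1 element with no Shh-/- H3K27ac peak. The size limit of that count was taken from the element itself. Both telomeric elements of that size had Shh-/- peaks.

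The next element towards the centromere lay at 73951700 to 73955299, 713 kb from Hoxd13. It held 3150 WT acetylated bases, among them the longest peak of that side (2800 bp, printed in part above), 100 bases in the Shh-/- list and 150 bases of WT H3K4me2. NIH3T3 cells had 0 bases there in both conditions. Between these elements a smaller one of 600 WT acetylated bases, at 73967100 to 73967699, was also without a Shh-/- peak. Of the WT H3K27ac of the centromeric desert, 32.4% lay 600 to 700 kb and 25.4% lay 700 to 800 kb from Hoxd13. In the Shh-/- list 0 bases remained in the 600 to 700 kb interval.

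A second place of this kind lay nearer to the genes. The element at 74450700 to 74452549, 216 kb from Hoxd13, held 1800 WT acetylated bases and 0 in the Shh-/- list, and its best-ranked peak stood at 13.3% of the WT list. Shh-/- buds did have 150 bases of H3K4me2 in it, while WT buds had 0. Of 3255 elements in the genome with at least 1800 WT acetylated bases, 30 (0.922%) had no Shh-/- peak, and 2 of these 30 were in the centromeric desert and 0 in the telomeric one.

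A pair of elements at about 400 kb from Hoxd13 made up the next largest without a Shh-/- peak. The one at 74265800 to 74267499 held 1050 WT acetylated bases and the one at 74272200 to 74273599 held 1000. The other 5 elements of the centromeric desert without Shh-/- H3K27ac, of the 10 counted above, held 100 to 400 bases each. No element of these 10 had WT H3K4me2 or H3K27ac in NIH3T3 cells. Of all 18 centromeric elements with WT H3K27ac, 6 had H3K4me2 in either genotype and 2 had H3K27ac in NIH3T3 cells.

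**Figure D2:**
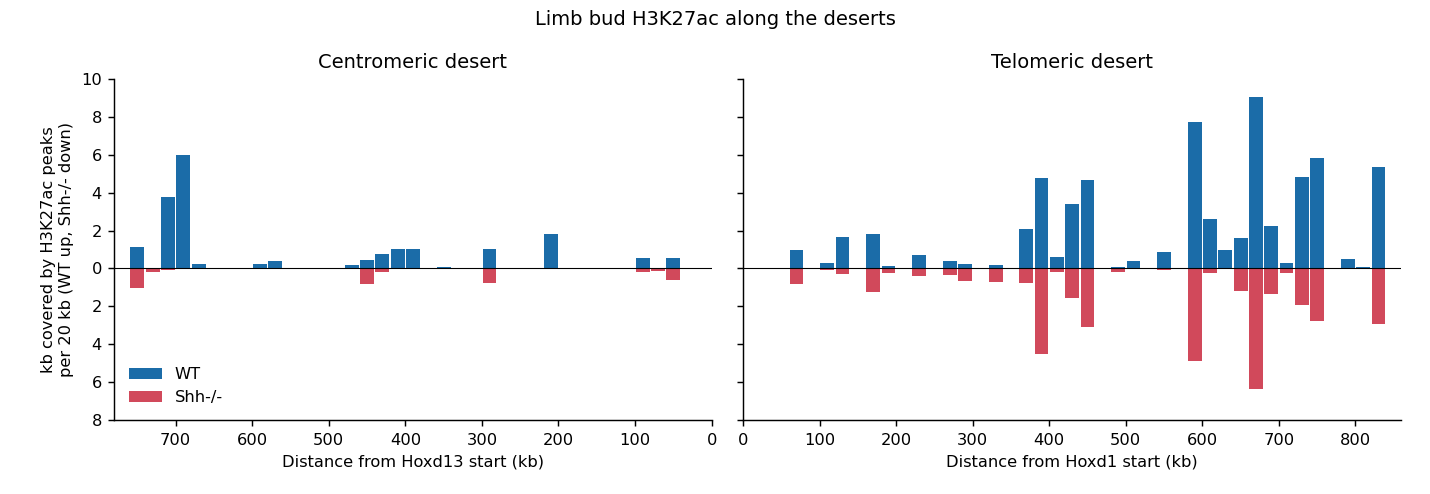
kb covered by limb H3K27ac peaks per 20 kb, WT upward and Shh-/- downward, by distance in kb from the start of Hoxd13 (left panel, axis reversed) and of Hoxd1 (right panel). On the centromeric side the highest WT bar, between 680 and 700 kb, has no Shh-/- counterpart, and on the telomeric side the tall WT bars have shorter Shh-/- bars below them.

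H3K27ac was present in both genotypes in 8 centromeric elements, and 6 of them had more bases in WT, beside 59.7% of such elements over the genome. The promoter of Atp5g3, which encodes a subunit of the mitochondrial ATP synthase, had 1150 bases in WT and 1050 in Shh-/- buds. The promoter shared by Lnpk, which encodes a protein of endoplasmic reticulum junctions, and the antisense gene 4930445N08Rik had 550 and 200 bases. The element at 74380200 to 74382799, 286 kb from Hoxd13, had 1050 and 750 bases. More bases in Shh-/- than in WT buds were found in 2 elements, with 450 against 800 bases at 74216650 to 74218849 and 550 against 600 bases at 74617500 to 74620399. Of the 4050 bases acetylated in Shh-/- buds on the centromeric side, 1050 and 200 thus lay at the protein-coding promoters. The other 8 elements held 100 to 800 bases each, and 1 of them, with 150 bases, was at the promoter of Mrpl23-ps1.

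On the telomeric side the large elements were smaller in the Shh-/- list but present. The 5 elements with the most WT H3K27ac lay 585 to 821 kb from Hoxd1. The first, at 75348100 to 75356649, held 7750 bases in WT and 4900 in Shh-/- buds. The second, at 75436350 to 75445749, held 6900 and 4350 bases and overlapped an exon of the lincRNA Gm13658. The element at 75511800 to 75517699 held 5600 and 2700 bases, and that at 75584350 to 75590299 held 5350 and 2950. The element at 75421750 to 75426999 held 4900 and 4150 bases, and its main peak was the best-ranked of the Shh-/- list on that side. All 5 had more bases in WT, which their choice by WT bases favours. None had H3K27ac in NIH3T3 cells, beside 12 of all 47 telomeric elements with WT H3K27ac that did.

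The best-ranked WT peak of both deserts lay at 75207550 to 75210949, in an intron of 2600014E21Rik 445 kb from Hoxd1. It was 3400 bp long, stood at 0.771% of the WT list and had a log2 ratio of 6.34. Its element held 4250 acetylated bases in WT and 2950 in Shh-/- buds, with 900 and 550 bases of H3K4me2. Of the 30 telomeric elements acetylated in both genotypes 22 (73.3%) had more bases in WT, beside the 59.7% over the genome, and the median of the Shh-/- to WT ratio of bases was 0.649. On the centromeric side that median was 0.690 over 8 elements, and over 18544 elements of the genome it was 0.875.

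The 17 telomeric elements without Shh-/- H3K27ac were 36.2% of the 47 with WT H3K27ac, beside 31.9% over the genome, and most were small. The largest was at 75369850 to 75372099, 607 kb from Hoxd1, with 1400 WT acetylated bases. Its best-ranked peak stood at 10.6% of the list and lay 4951 bp from the nearest Shh-/- peak, and its peak at 75371450 lay 3851 bp from it. The next held 750 bases, at 75385100 to 75386199, and 500 bases, at 75557250 to 75558199. The other 14 held 100 to 300 bases each.

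**Figure D3:**
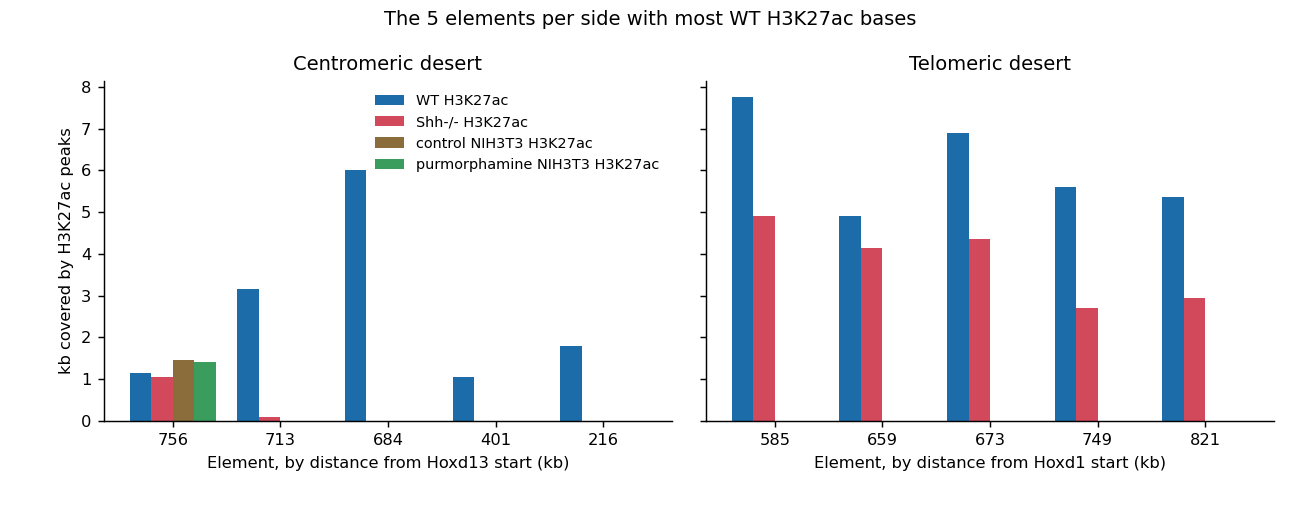
kb covered by H3K27ac peaks in 4 lists within the 5 elements per side that had the most WT H3K27ac bases, each named by its distance in kb from the start of Hoxd13 (left panel) or Hoxd1 (right panel). Of the centromeric elements, 1 at the Atp5g3 promoter is similar in all 4 lists and the other 4 have 0 or 100 Shh-/- bases; all 5 telomeric elements keep between 2700 and 4900 Shh-/- bases.

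H3K4me2 covered fewer bases than H3K27ac on both sides in WT buds, at 0.705 times its mean over the genome on the centromeric side and 1.13 times on the telomeric side. On the centromeric side it covered 4200 bases in 9 WT peaks and 4050 bases in 11 Shh-/- peaks, so that Shh-/- buds held 96.4% of the WT bases where they held 21.0% of the H3K27ac bases. Most of it lay at promoters, with 1450 and 1350 bases at Lnpk and 1150 and 900 bases at Atp5g3. On the telomeric side it covered 7450 bases in 28 WT peaks and 3800 bases in 15 Shh-/- peaks. There the Shh-/- list held 51.0% of the WT bases, against 90.0% over the genome and 57.7% for H3K27ac on the same side. Of the 28 telomeric WT H3K4me2 peaks 22 (78.6%) overlapped a WT H3K27ac peak, beside 48.9% of the list. The largest was the stretch at the head-to-head promoters of the lincRNAs Gm13652 and 2600014E21Rik, 373 kb from Hoxd1, with 2250 bases in WT and 1200 in Shh-/- buds.

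Of the WT H3K4me2 peaks 3 of 9 on the centromeric side were WT-only (33.3%, 12.1 to 64.6), beside 25.7% of the whole list, and 20 of 28 on the telomeric side (71.4%, 52.9 to 84.7), where the whole list weighted to their ranks had 47.1%. The telomeric ones were short and poorly ranked, and 1 of the 5 members in the better-ranked 50% of the list was WT-only, beside 657 of 18294 over the whole list. Of the Shh-/- H3K4me2 peaks 5 of 11 and 8 of 15 were Shh-/- only (45.5%, 21.3 to 72.0, and 53.3%, 30.1 to 75.2), beside 22.5% of the list. Weighted to the members' ranks, that list had 28.2% and 36.8%. In its better-ranked 50%, 0 of 4 and 0 of 2 members were Shh-/- only, beside 776 of 19237 over the list. The best-ranked telomeric WT-only peak, 250 bp at 75589850 to 75590099, stood at 39.1% of its list. At the 10 centromeric elements that lacked Shh-/- H3K27ac, H3K4me2 was called in 1, and at the 17 telomeric ones in 0. Of all elements with WT H3K27ac it was called in 6 of 18 and 14 of 47. Most of the 17 were small, the part of size was not tested, and the share over the genome was not counted.

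H3K27me3 in Shh-/- buds was nearly absent from both deserts, though the cluster between them was covered with it. Inside the cluster 45 peaks covered 48100 bases. A false discovery rate under 0.05 was given to 28 of these 45 and to 9831 of the whole list's 20830. The deserts held 3 peaks on the centromeric and 1 on the telomeric side, each 100 bp long and each with a false discovery rate above 0.05. None of them overlapped a WT or Shh-/- H3K27ac peak, an overlap that was also rare over the genome, with 0.725% of all WT H3K27ac peaks on an H3K27me3 peak and 2.11% of all H3K27me3 peaks on a WT H3K27ac peak. The limit a count of 0 allows is 8.11% of 37 centromeric and 2.83% of 106 telomeric WT peaks. The best-ranked of the 4, at 73968650 to 73968749, stood at 59.4% of the H3K27me3 list. At Hoxd13 the promoter had 3 WT H3K27ac peaks, the best at 47.4% of the list, and none in the Shh-/- list. It had an H3K27me3 peak in Shh-/- buds at 2.87% of its list. The Evx2 and Hoxd1 promoters had no H3K27ac peak in either genotype, and their best H3K27me3 peaks stood at 0.528% and 13.7%. H3K27me3 was not mapped in WT buds, so a change of this mark cannot be read from it.

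NIH3T3 fibroblasts used the telomeric desert as well, but another stretch of it. With purmorphamine 110 peaks covered 74000 bases on the telomeric side, and in control cells 89 peaks covered 64350 bases. On the centromeric side 7 peaks covered 5150 bases with purmorphamine and 8 peaks covered 6100 bases in control cells. The telomeric side had 13 times as many acetylated bases per kb as the centromeric side with purmorphamine and 9.52 times in control cells. Its density was 4.35 and 3.54 times the mean over the genome, and that of the centromeric side 0.335 and 0.372 times.

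The fibroblast acetylation was gathered close to the cluster. In control cells 76.0% and with purmorphamine 55.5% of the telomeric bases lay 200 to 300 kb from Hoxd1, where WT limb buds had 2.10% of theirs. The median acetylated base lay 252 kb from Hoxd1 in control cells, 251 kb with purmorphamine, 609 kb in WT and 591 kb in Shh-/- limb buds. Within 400 kb lay 98.0% of the control and 90.5% of the purmorphamine bases, against 20.6% of the WT and 27.1% of the Shh-/- limb bases. Of the WT limb H3K27ac bases on the telomeric side 7.69% were inside purmorphamine and 6.06% inside control peaks, beside 44.1% for each over the genome. By the labels, the limb and fibroblast samples also differed in their H3K27ac antibody, so that tissue and antibody cannot be told apart.

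**Figure D4:**
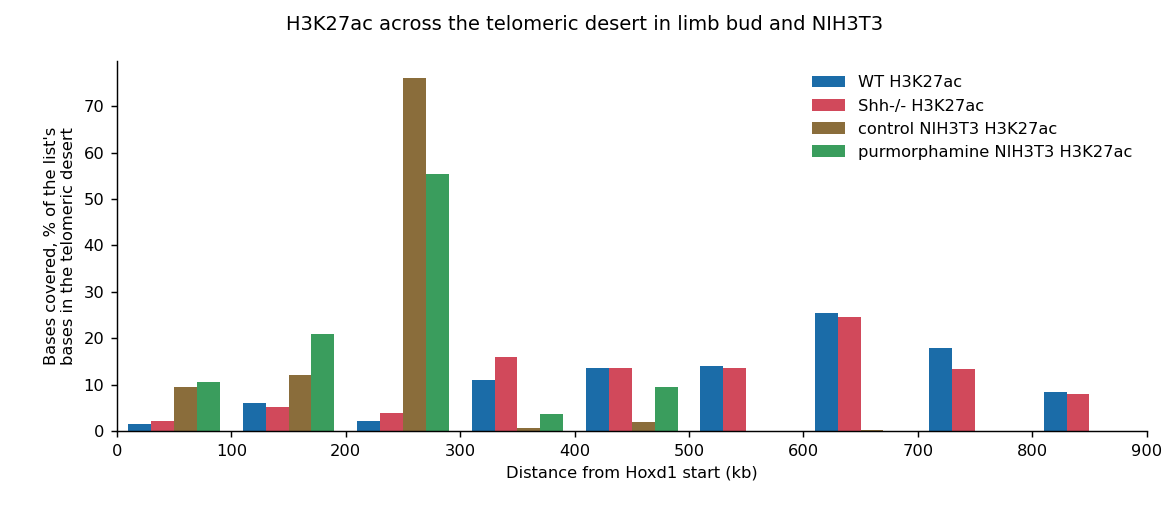
Bases covered by H3K27ac peaks in each 100 kb of the telomeric desert, as a percent of the list's bases on that side, by distance in kb from the start of Hoxd1, for WT and Shh-/- limb buds and control and purmorphamine-treated NIH3T3 cells. The NIH3T3 lists peak at 200 to 300 kb (76.0% and 55.5%), and both limb lists peak at 600 to 700 kb (25.5% and 24.6%).

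Fibroblast peaks were joined into elements in the same way. The largest spanned 75021850 to 75056699, 259 kb from Hoxd1 in intergenic sequence, with 30000 acetylated bases in control and 25500 in purmorphamine-treated cells. Within it lay the longest NIH3T3 peaks of the deserts, 12050 bp in control cells (75033250 to 75045299) and 5650 bp with purmorphamine (75033450 to 75039099). Limb buds had 650 bases there in WT and 1000 in Shh-/-. The element at 74993300 to 75008399 had 7050 bases in control and 6400 in treated cells, and that at 74963150 to 74968599 had 4450 and 4150.

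Purmorphamine-treated cells had more acetylated bases at places outside this stretch, on both sides of it. At 74881450 to 74898099, 118 kb from Hoxd1, 12550 bases were covered with purmorphamine and 6450 in control cells. At 75220400 to 75226599, in an intron of 2600014E21Rik 457 kb from Hoxd1, the values were 4500 and 1000 bases, and at 75215350 to 75219049, 452 kb away, 2450 and 0. Limb buds had 0 H3K27ac bases at these last 2 places in both genotypes. More bases in control cells were found at the largest element and at 74979500 to 74983049, with 1650 bases against 0.

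Of the purmorphamine peaks 53 of 110 on the telomeric side were absent from the control list (48.2%, 39.1 to 57.4), beside 36.5% of the whole list, and 0 of 7 on the centromeric side, where a count of 0 allows a share of up to 42.9%. Of the control peaks 26 of 89 on the telomeric side were absent from the purmorphamine list (29.2%, 20.8 to 39.4) and 4 of 8 on the centromeric side (50.0%, 21.5 to 78.5), beside 41.1% of the whole list. Weighted to the ranks of the telomeric members, the whole purmorphamine list had 39.5% of unshared peaks and the control list 45.7%. Telomeric elements acetylated only with purmorphamine held 7.70% of the purmorphamine bases, beside 7.14% over the genome. For elements only in control cells the values were 4.04% and 6.22%. The best-ranked purmorphamine-only peak was 650 bp at 74906850 to 74907499 and stood at 19.1% of its list. The best-ranked control-only peak was 900 bp at 74980900 to 74981799 and stood at 38.2%. The 4 control-only peaks of the centromeric side covered 650 bases in all.

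The centromeric desert of fibroblasts held little beside promoters. The Atp5g3 promoter had 1800 bases with purmorphamine and 2000 in control cells, and the Lnpk promoter 1500 and 1600. The 1 large distal element lay at 74506400 to 74509299, 159 kb from Hoxd13, with 1850 and 1950 bases, and limb buds had 0 bases of any mark there. None of the 10 limb elements that lacked Shh-/- H3K27ac was acetylated in NIH3T3 cells of either condition. Of all 18 centromeric elements with WT H3K27ac only 2, at the Atp5g3 and Lnpk promoters, were, so this absence was not particular to the 10.

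The annotation places 11 genes in the centromeric and 13 in the telomeric window, with 2 and 1 protein-coding genes. Atp5g3 (ENSMUSG00000018770, 73908447 to 73911326, minus strand), Lnpk (ENSMUSG00000009207, 74520291 to 74578948, minus strand) and Mtx2 (ENSMUSG00000027099, 74825803 to 74878431, plus strand), which encodes a protein of mitochondrial outer membrane import, had promoter peaks in all 6 lists of active marks and none of H3K27me3. The Mtx2 promoter stood at 12.9% of the WT and 18.3% of the Shh-/- H3K27ac list, and its control NIH3T3 peak stood at 0.187%, the best rank of any list in the deserts. Among the noncoding genes, the Gm13652 and 2600014E21Rik promoters were acetylated in both genotypes (best rank 15.9% in WT and 50.1% in Shh-/-). The Gm13658 promoter had 2 WT H3K27ac peaks, the better at 64.5% of the list, and 0 Shh-/- peaks. The Gm37243 promoter, in the telomeric element with the most WT H3K27ac, had 2 WT and 3 Shh-/- peaks (best rank 3.40% and 24.2%). The Gm14425 and Gm14427 promoters had peaks in NIH3T3 cells only. Rps6-ps4 and Gm13653 had 1 WT promoter peak, at 89.8% of the list, and 1 in control NIH3T3 cells. Gm28640 had H3K4me2 in both genotypes and 1 H3K27me3 peak but no H3K27ac.

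Most acetylated members were distal. Of the WT H3K27ac peaks 4 of 37 centromeric (10.8%, 4.29 to 24.7) and 12 of 106 telomeric peaks (11.3%, 6.60 to 18.8) overlapped a promoter, taken from 2000 bases before to 1000 after a transcription start, beside 32.0% of the list. In the NIH3T3 lists the telomeric shares were 7.27% with purmorphamine and 12.4% in control cells, beside 26.1% and 26.0%. Of the WT H3K4me2 peaks 6 of 9 centromeric and 5 of 28 telomeric peaks were at promoters, beside 70.5% of the list.

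Exact matches to 2 motifs were counted on both strands in 1000-base windows around peak centres. GACCACCCA, the consensus site of GLI proteins, the transcription factors of the Hedgehog pathway, was found in 1 of 37 centromeric and 0 of 106 telomeric WT H3K27ac windows, beside 0.932% of all WT windows. No match lay inside an H3K27ac peak of limb buds in either desert. In or near limb peaks 2 places held the match, shown here in capitals within 30 bases of the plus strand. The first, at chr2:74129595-74129624, was inside an H3K4me2 peak at the Gm28640 promoter, which both genotypes had. The second, at chr2:74265379-74265408, was 403 bp from a WT-only H3K27ac peak of the element at 74265800. That peak was 100 bp wide and stood at 98.0% of the WT list.
GLI match in H3K4me2 peaks: ggggaggggaGACCACCCAttaatttcctc
GLI match beside a WT-only H3K27ac peak: aagggagatgGACCACCCAatggacgctgc
A match is a description of the letters and not of binding, and factors can bind sites that differ from the consensus.

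CAATAAA, marked in the stretches above, was found in 35 of 106 telomeric WT H3K27ac windows (33.0%, 24.8 to 42.4) and in 11 of 37 centromeric ones (29.7%, 17.5 to 45.8), beside 19.0% of all WT windows. On the telomeric side of NIH3T3 cells the shares were 32.7% (24.7 to 41.9) with purmorphamine and 34.8% (25.7 to 45.2) in control cells, beside 16.8% and 17.1%. Of the 30 centromeric WT-only windows 10 held it, beside 5064 of 24073 WT-only windows of the whole list. Windows of neighbouring peaks overlap, so these counts share sequence, and the part of base composition in them was not tested.

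At marker promoters every H3K27ac list held the genes of its own label and some of the other. Of 6 promoters of limb mesenchyme genes 6 had H3K27ac in each limb genotype and 3 in each NIH3T3 list, and of 6 fibroblast promoters 6 had it in each NIH3T3 list and 2 in each limb genotype. Of the limb genes, Prrx1 had 14250 bases with purmorphamine and 13050 in control cells, Lhx9 had 2400 and 3250, and Fgf10 had 1050 and 1300. Of the fibroblast genes, Fn1 had 2450 bases in WT and 2100 in Shh-/- buds, and Col1a2 had 1700 and 2000. Limb ectoderm (3 genes) and blood (2 genes) promoters had 0 in both genotypes. The hindlimb gene Tbx4 had 150 bases in Shh-/- buds, the muscle precursor genes Pax3 and Lbx1 had 100 and 350 bases in Shh-/- buds, and the endothelial gene Cdh5 had 100 bases in WT buds. The part of these cells in the results was not tested. The lists do not show the depth of the libraries, and whether acetylation below the threshold of the peak caller remained at the elements without a Shh-/- peak was not tested.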

How the data were processed

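ChIP-seq peak lists of 7 conditions were used, grouped by the sample labels. The authors aligned reads with Bowtie2 2.2.5 to mm10 and called peaks with CisGenome against input, both replicates of a condition together. The deposited lists give per peak a rank, a position, a length and 4 measures. The deposited false discovery rate is a q-value of the authors' peak caller. The deposited rank follows a score, which is the highest ChIP against input statistic the authors found in a peak. The authors' other values are a log2 ratio of ChIP over input and −log10 of the lowest Poisson p-value. Scores were at least 3.00 and −log10 values at least 5.00. Ranks are printed as a percent of each list's own length, and the other values were not compared between lists.

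Only the autosomes (1 to 19) and the X and Y chromosomes were kept, which left out 137 peaks. Coordinates are printed as deposited. Starts fall on steps of 50 bp and the sources used here do not say whether counting starts from 0 or 1, so positions and printed windows may be off by 1 base. No peak passed a chromosome end of GRCm38, from which sequences were read (RefSeq), and genes came from GENCODE basic annotation of the same build. Overlaps were computed with Python 3.11.15, numpy 2.4.6 and pandas 2.3.3, checked against bedtools 2.31.1, and tested on simulated data. The study's methods give 1 common minimum of reads for all libraries and the lists give no depth per library, so the number of peaks sets the precision, as 95% Wilson and Newcombe intervals (scipy 1.17.1). Each condition gave 1 list, so no test between conditions was made.

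The regions, gene lists and tests were chosen with earlier results of these data known. Named by rule were the protein-coding genes in the windows, other genes with a promoter peak, Evx2, Hoxd13 and Hoxd1 as landmarks, the 5 elements per side with the most WT H3K27ac bases, and the best-ranked unshared peaks. The fibroblast elements, the smaller elements, the size limits over the genome, the GLI sites and the 400 kb limit were chosen after their values were seen. Other settings for overlap, filters, merging, promoters and bounds were tried.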

Additional observations from a re-analysis of the deposited data

Results flagged for a closer look

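H3K27ac on the centromeric side moved in opposite directions in the 2 systems when conditions with an active Hedgehog pathway were set against those without. Purmorphamine minus control NIH3T3 cells came to -950 bases covered and to -1 peak. WT minus Shh-/- limb buds had the opposite sign, with 19300 against 4050 bases and 37 against 17 peaks. The whole lists had the same signs, with 0.938 times as many bases with purmorphamine as in control cells and 1.18 times as many in WT as in Shh-/- buds. Each condition has 1 list, so the difference was not tested.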

How the results depend on the processing

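No paired analysis was possible because each list pools both replicates and no column carries a replicate number, and for the same reason no replicate could be left out. Of 157 values under other settings, 122 moved by less than their interval (shares and their difference) or by less than 1.5 times (ratios between the sides). The WT-only share of WT H3K27ac was higher on the centromeric side by 14.5 to 39.4 points under 9 settings. The 95% interval of the difference included 0 with 50% coverage (-0.368 to 24.8) and with merged peaks (-10.8 to 37.5), and the 39.4 points by covered bases have no interval.

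Shares are given here beside the whole-list share at the same setting. The WT-only share of WT H3K27ac, centromeric then telomeric, was 91.9% and 77.4% beside 58.9% when 50% of a peak had to be covered. With a gap of up to 500 bp it was 64.9% and 37.7% beside 30.5%. With peaks within 1 kb merged it was 63.2% and 47.9% beside 39.4%, and by bases 91.2% (centromeric) beside 40.3%. The Shh-/- only share of H3K27ac was 35.3% and 7.87% beside 20.9% with the gap, and 33.3% (centromeric) beside 31.5% when merged. On the telomeric side it was 16.6% beside 29.5% by bases, and 17.8% beside 29.3% in the better-ranked 50% of both lists. That cut also drops weaker peaks of the other list, so its shares differ from those above, where the other list was kept whole. For H3K4me2 the WT-only share was 50.0% (telomeric) beside 12.2% with the gap and 66.7% (centromeric) beside 50.3% without promoters. The Shh-/- only share was 80.0% (centromeric, 4 of 5) beside 47.5% without promoters. It was 0% (telomeric, 0 of 2) beside 20.8% in the better-ranked 50% of both lists. On the telomeric side the purmorphamine-only share was 60.0% beside 44.2% with 50% coverage and 30.0% beside 24.5% with the gap. It was 34.7% beside 26.8% in the better-ranked 50% of both lists and 34.9% beside 29.6% by bases. The control-only share was 40.4% beside 51.2%, 14.6% beside 26.9% and 15.0% beside 30.4% under the first 3 of these.

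The telomeric to centromeric ratio reversed for Shh-/- H3K4me2, from 0.847 to 1.80 without promoters, 1.04 with windows 50 kb shorter (which leaves out the Atp5g3 promoter) and 1.23 by number of peaks, and was 0.459 in the better-ranked 50%. For WT H3K4me2 it was 6.04 without promoters and 2.81 by peaks, for Shh-/- H3K27ac 4.72 by peaks, for purmorphamine 32.0 without promoters and 19.8 with shorter windows, and for control cells 22.3 and 15.0. For H3K27me3, 2 settings left no peak on a side and gave no value. The cause of these shifts was not tested beyond what each setting leaves out. Depth limits what a missing peak says.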
